A study of Mus musculus with 4 samples.

Results

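The transcripts described here are the noncoding RNAs that the array reads through RefSeq models, that is probes whose target accession begins with NR_ or XR_, and that were flagged well above background on at least 1 of 4 arrays. Of 5026 such noncoding probes, 1604 (31.9%) met that rule, out of 56605 non-control probes on the array, and 3422 did not. The members were thus chosen by the flag and the signal that also give their levels, so that their being detected is no finding. The 10 members just inside the rule had a highest measured level between -5.31 and -5.11, and the 10 noncoding probes just outside it with the highest level reached -4.56 to -4.46, since the flag also weighs the local background of a spot. A level is log2 of the spot's processed signal minus log2 of the 75th percentile of its array, so that 0 is the signal of a probe at that percentile.

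The RNA came from CD8 T cells sorted by flow cytometry from the spleens and lymph nodes of C57BL/6 mice of genotype PD-1-/- that were 1 to 3 months old and had received no treatment. All 4 groups therefore lack PD-1, a receptor that restrains T cell responses, and no PD-1-sufficient group was analysed here. The gates were CD44low CD62Lhigh for P1 (naive phenotype), CD44high CD62Lhigh for P2 (central memory phenotype), CD44 high CD62Llow for P3 (effector or effector memory phenotype) and CD44low CD62Llow for P4, which was the population of interest in the study. A subset stands for 1 array of 1 RNA sample, and the sources used here do not give the number of mice behind it. No difference below therefore has a replicate, none was tested, and the position on the single slide cannot be told apart from the subset.

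Noncoding RNAs of T cells fall into several kinds. Small nuclear and nucleolar RNAs guide splicing and ribosomal RNA modification; many nucleolar RNAs (snoRNAs) are cut from the introns of host genes whose spliced RNA is itself noncoding and short-lived. Long noncoding RNAs (lncRNAs) can act in the nucleus on chromatin or splicing, serve as precursors of microRNAs, or lie antisense to a coding gene, and some of them are known for their activity in activated and memory lymphocytes.

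The start regions of snoRNA host genes are shown first, because these genes were lower together in P3. Many host genes are known as genes whose transcripts begin in a pyrimidine tract, a feature shared with ribosomal protein genes. Each line gives 30 bases before and 30 bases after the RefSeq transcription start (RefSeq, GRCm38.p6), 5′ to 3′, and capitals mark the longest run of C and T of at least 6 bases within 10 bases before and 20 bases after the start.
Snhg1, chr19:8723457-8723516, plus strand: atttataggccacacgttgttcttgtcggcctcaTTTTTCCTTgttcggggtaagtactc
Snhg12, chr4:132308648-132308707, plus strand: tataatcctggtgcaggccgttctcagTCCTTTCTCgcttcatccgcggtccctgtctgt
Snhg16, chr11:116671630-116671689, plus strand: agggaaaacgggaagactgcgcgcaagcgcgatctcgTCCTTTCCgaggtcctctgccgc
Snhg8, chr3:123508307-123508366, minus strand: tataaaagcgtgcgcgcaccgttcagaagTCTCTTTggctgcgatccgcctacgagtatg
Snhg5, chr9:88522868-88522927, minus strand: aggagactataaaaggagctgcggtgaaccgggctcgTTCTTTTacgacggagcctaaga
Snhg15, chr11:6528731-6528790, minus strand: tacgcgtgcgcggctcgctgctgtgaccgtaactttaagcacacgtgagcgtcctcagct
Snhg15 has no such run and is shown because its signal differed between subsets as much as that of the others. A promoter sequence was found for 11 of the 14 host genes on the list described below, and 8 of the 11 (72.7%) held such a run, against 28.7% of all 32851 promoters of the table and 31.1% of the 742 that belong to members. The letters TATAAA, searched on both strands in the whole 300 bases, were in 6 of the 11 (54.5%) and in 13.6% of all promoters. These matches describe the sequence and say nothing on which protein binds there.

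Promoters of lncRNAs that differed between memory and naive phenotypes follow, because the members Ifngas1, Mirt1 and Morrbid carry much of the account below. Each is the RefSeq window from 250 bases before to 50 bases after the start (GRCm38.p6), 5′ to 3′. Capitals mark exact matches, on either strand, to TGTGGT (the core that RUNX factors prefer), GGTGTGA (T-box factors), and TGACTCA or its reverse complement TGAGTCA (AP-1).
Ifngas1, chr10:118556476-118556775, minus strand: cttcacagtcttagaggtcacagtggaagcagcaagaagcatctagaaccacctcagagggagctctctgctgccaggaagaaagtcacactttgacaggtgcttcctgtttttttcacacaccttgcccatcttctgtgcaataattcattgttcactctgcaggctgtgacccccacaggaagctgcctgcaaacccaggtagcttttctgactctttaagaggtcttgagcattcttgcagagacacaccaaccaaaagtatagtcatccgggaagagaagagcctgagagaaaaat
Mirt1, chr19:53464747-53465046, minus strand: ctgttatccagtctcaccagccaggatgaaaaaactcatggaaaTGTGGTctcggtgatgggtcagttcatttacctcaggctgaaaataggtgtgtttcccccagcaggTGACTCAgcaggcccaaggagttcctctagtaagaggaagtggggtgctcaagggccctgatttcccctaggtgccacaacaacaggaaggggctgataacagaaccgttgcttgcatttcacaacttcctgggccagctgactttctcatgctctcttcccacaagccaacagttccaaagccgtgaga
Morrbid, chr2:128429302-128429601, minus strand: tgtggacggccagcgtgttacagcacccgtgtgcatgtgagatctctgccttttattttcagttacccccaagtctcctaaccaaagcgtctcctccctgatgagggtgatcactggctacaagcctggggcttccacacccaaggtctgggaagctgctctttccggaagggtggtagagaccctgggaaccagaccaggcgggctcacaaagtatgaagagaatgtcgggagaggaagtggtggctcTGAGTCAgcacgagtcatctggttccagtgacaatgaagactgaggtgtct
The window of Ifngas1 held none of these letters. That of Mirt1 held TGTGGT and TGACTCA, at positions -206 and -140 from the start, and that of Morrbid held TGAGTCA across the start, from position -1. Among all promoters of the table, TGTGGT was in 16.8%, TGACTCA in 5.20% and GGTGTGA in 3.98%, and among those of members in 17.7%, 4.58% and 4.72%.

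Of the 1604 members, 923 had an NR_ and 681 an XR_ accession. The RefSeq gene table named 1039 of them (64.8%), for 977 symbols, and of the named members 257 had a proper symbol and 782 only a gene model or clone name; 565 could not be named. By gene type, 797 members were lncRNAs, 158 transcribed pseudogenes, 46 noncoding variants of coding genes and 38 small or structural RNAs. From P1 to P4, 1252, 1219, 1413 and 1257 members were above background. All 4 arrays measured 1084 members (67.6%), while 320 were above background on 1 array only, 165 of them on the P3 array. The median member gave a level of -2.89, -2.87, -3.06 and -3.01 in P1 to P4, and the median coding probe above background somewhere gave levels between -0.32 and -0.21. Differences between probes in level also contain probe affinity, so that only differences of 1 probe between arrays are read below. A spot in an area of the slide that was bright on 1 array only was marked, and 206 members had such a spot, among them 93 of the 320 that were above background on 1 array.

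Depth on an array is set by signal over background and by spot noise. Spots that carry the same probe varied within an array with an SD of 0.077 (log2, pooled over the 4 arrays), which sets a 95% half-width for a difference of 0.18 where levels are 0 or more, 0.29 from -3 to 0 and 0.61 below -3. Variation from mouse to mouse, sort to sort or labelling to labelling is not in this half-width. The sorted cells carried T cell transcripts on all arrays, with 7 of 7 T cell markers above background in each. The summed linear level of these markers was 853, 749, 648 and 745 from P1 to P4, lowest in P3. Cd4 gave -0.40, -0.38, 0.22 and -0.39. Markers of other cells moved with P3: of 8 conventional dendritic cell markers 2, 6, 8 and 6 were above background from P1 to P4, and their summed linear level was 1.24, 6.01, 166 and 5.81. Clec9a and Xcr1, defining genes of one dendritic cell type, were not well above background in P1, P2 or P4, and both were above it in P3. The summed levels of 6 macrophage and monocyte markers were 2.44, 3.06, 22.7 and 2.84, of 3 erythroid markers 0.13, 0.27, 4.98 and 0.36, of 3 plasma cell markers 0.50, 1.14, 7.61 and 2.92, and of 2 neutrophil markers 0.16, 0.26, 1.09 and 0.08. Those of 6 B cell markers were 5.56, 5.01, 7.94 and 4.75, and of 4 natural killer cell markers 80.4, 134, 186 and 142. The brightest of these 4 was Nkg7, at levels of 6.28, 6.92, 7.42 and 7.04, and Ncr1 was not well above background on any array. Most of the plasma cell sum was Prdm1, at levels of -1.16, 0.05, 2.46 and 1.49. Jchain and Sdc1 were not well above background in P1. From P2 to P4 Jchain gave -4.38, 1.05 and -4.69, and Sdc1 gave -4.17, -4.54 and -3.74. Whether the Prdm1 signal came from plasma cells was not tested. The 3 plasmacytoid dendritic cell markers summed lower in P3, at 63.3, 68.0, 38.7 and 60.4, with Siglech at -1.25 and Tcf4 at 3.64 in P3 minus P1. The part of these cells in the differences that involve P3 was not tested, and in RNA of a sorted pool fewer cells of a type and less RNA per cell cannot be told apart.

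**Figure D1:**
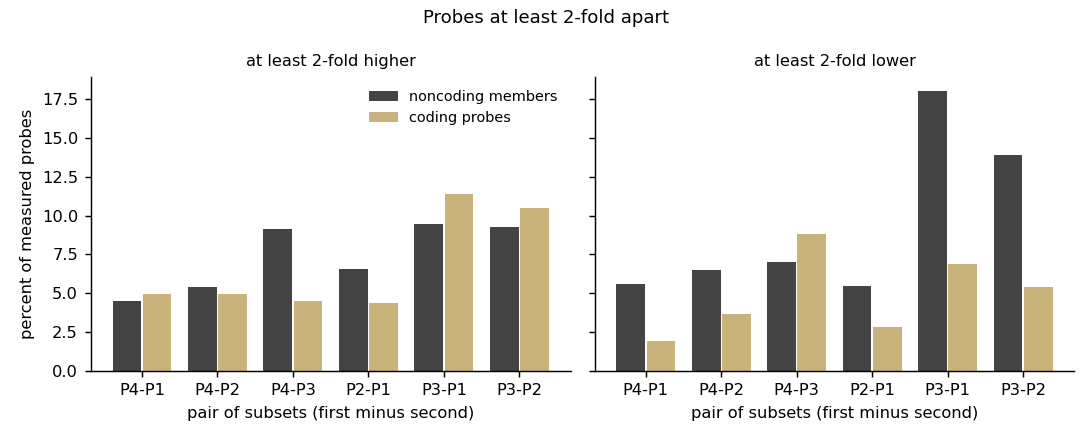
Percent of measured probes at least 2-fold higher (left) or lower (right) in the first subset of each of 6 pairs, for noncoding members (dark bars) and coding probes (light bars), 1 array per subset. Members were lower in P3 than in P1 in 18% of cases against 6.9% of coding probes.

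P3 was the subset in which noncoding transcripts stood lowest. Of 1508 members measured in P3 or P1, 272 (18%) were at least 2-fold lower in P3, where 9.78% of all probes and 6.9% of coding probes were, and 143 (9.48%) were at least 2-fold higher, where 9.42% of all probes and 11.4% of coding probes were. Counting only the 1157 members above background on both arrays, 185 were lower and 64 higher, beside 8.34% and 5.55% of all probes. Against P2, 207 of 1489 (13.9%) were lower in P3, beside 7.79% of all probes and 5.42% of coding probes, and 138 higher, beside 8.96% and 10.5%. Above background on both arrays, 132 were lower and 43 higher, beside 6.58% and 4.94% of all probes. At a 4-fold threshold the lower members of P3 minus P1 no longer outnumbered the higher ones, with 56 lower (3.71%, beside 1.72% of all probes) and 61 higher (4.05%, beside 4.77%). Members above background on both arrays had a median P3 minus P1 difference of -0.42, coding probes one of -0.15 and all probes one of -0.23, so that relative to all probes the members lay lower. The plot of medians by brightness shows that members lay below coding probes in P3 minus P1 in each of 4 bins of mean level, with -0.64 against -0.24 in the brightest bin and -0.43 against -0.30 in the dimmest. With arrays scaled instead on the median of probes that all 4 arrays measured, the median was -0.35 for members and -0.16 for all probes.

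**Figure D2:**
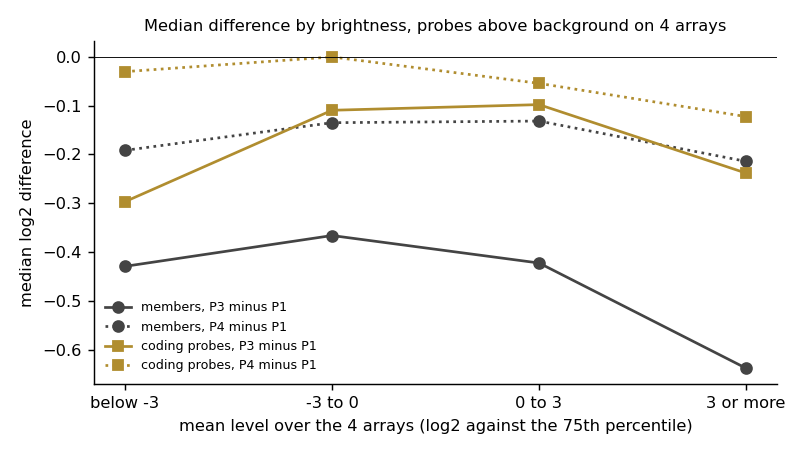
Median log2 difference of probes above background on all 4 arrays, by bin of mean level, for noncoding members (dark circles) and coding probes (light squares), P3 minus P1 as solid and P4 minus P1 as dotted lines. In the brightest bin the P3 minus P1 median was -0.64 for members and -0.24 for coding probes.

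P4 differed from P1 in fewer members. At least 2-fold higher were 61 of 1363 measured members (4.48%), beside 4.11% of all probes and 4.98% of coding probes, and 76 (5.58%) were lower, beside 2.58% and 1.89%. Above background on both arrays were 25 of the higher and 28 of the lower members, beside 2.29% and 0.967% of all probes. Against P2, 73 of 1351 were higher, beside 4.47% of all probes and 4.98% of coding probes, and 88 lower, beside 3.98% and 3.64%; above background on both arrays, 26 were higher and 34 lower, beside 2.43% and 2.2% of all probes. Against P3, 135 of 1480 members (9.12%) were higher in P4, beside 5.77% of all probes and 4.5% of coding probes, and 104 (7.03%) lower, beside 7.47% and 8.85%. Of these, 79 and 41 were above background on both arrays, beside 4.44% and 4.35% of all probes. P2 exceeded P1 in 89 of 1355 members, beside 4.07% of all probes and 4.39% of coding probes, and lay below it in 74, beside 3.04% and 2.8%. On both arrays, 37 were higher and 25 lower, beside 2.46% and 1.45% of all probes. With every probe in a locally bright area left out, 38 of 1223 members (3.11%) were lower in P4 than in P1, beside 1.70% of all probes, and 53 of 1212 (4.37%) were lower than in P2, beside 3.14%. In P2 minus P1, 41 of 1197 (3.43%) were then lower, beside 2.25%, and 55 (4.59%) higher, beside 3.37%. In P3 minus P1, 218 of 1351 (16.1%) were lower, beside 8.96%.

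Small and structural RNA genes showed the largest share of lower signal in P3 among the gene types. Of 36 measured, 19 (52.8%) were at least 2-fold lower in P3 than in P1 and 0 higher, beside 9.78% and 9.42% of all probes, with a median of -1.04 over the 32 above background on both arrays, of which 31 lay below 0. For comparison, 144 of 747 lncRNAs (19.3%), 87 of 524 unnamed members (16.6%), 9 of 46 noncoding variants of coding genes (19.6%) and 13 of 155 transcribed pseudogenes (8.39%) were at least 2-fold lower. Whether a probe of a small RNA gene read the mature RNA or a longer RNA that contains it was not tested. The levels below are therefore signals of probes and no measure of the mature RNAs.

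The snoRNA genes themselves guide the modification of ribosomal and spliceosomal RNA. All 10 that were members lay below P1 in P3, with a median of -1.54 and a range from -2.42 to -0.27, and 7 of the 10 were at least 2-fold lower; over all probes the median was -0.23 and 9.78% were that much lower. Snora73a gave levels of 4.36, 3.24, 1.93 and 2.41 in P1 to P4. It was thus highest in P1 and lowest in P3, 5.37-fold apart. Snord33, which lies in an intron of a ribosomal protein gene, gave 1.56, 0.73, -0.27 and 0.41, and Snord17 gave 0.49, 0.16, -1.22 and -0.46. The same order, with P1 highest and P3 lowest, was seen in both. Snora23 gave -2.94, -2.95, -4.60 and -3.09, with P3 the only low value. Snora81 gave -2.34, -3.0, -3.32 and -1.72 and was 1.28 higher in P4 than in P2. In P4 minus P1 the 10 snoRNA genes had a median of -0.55, with 4 at least 2-fold lower, beside 2.58% of all probes. In P4 minus P3 all 10 lay above 0.

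Spliceosomal small nuclear RNA genes had the same order. The U1 gene Rnu1a1 gave levels of 5.13, 4.35, 3.71 and 4.49 from P1 to P4, and Rnu1b1 and Rnu1b6 differed between P3 and P1 by -1.41 and -1.42. Probes for U1 copies may share sequence, so these are not independent readings. Rnu12, the U12 RNA of the minor spliceosome, gave 4.53, 4.43, 3.16 and 3.98, and the U2 gene Rnu2-10 gave 1.43, 1.00, 0.35 and 1.14. All 5 such members were at least 2-fold lower in P3 than in P1, beside 9.78% of all probes, with a median of -1.41, and none past 2-fold in P4 minus P1, with a median of -0.54. The U3 nucleolar RNA Rnu3b1, needed to cut the ribosomal RNA precursor, gave 4.05, 3.4, 2.81 and 4.14, so that P4 was level with P1.

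RNAs of other ribonucleoprotein enzymes were less uniform. Rmrp, the RNA of RNase MRP, gave 0.14, -1.02, -1.76 and -1.23, higher in P1 than in every other subset by at least 1.15. Rn7sk, the 7SK RNA that holds the elongation factor P-TEFb inactive, gave 3.31, 2.77, 2.06 and 2.94, and Rn7s1, a signal recognition particle RNA, gave 3.76, 3.10, 2.76 and 3.12. Vaultrc5, a vault RNA, gave -1.32, -2.08, -2.75 and -1.96. In each of these P1 was highest and P3 lowest. Rpph1, the RNA of RNase P, differed by only -0.18 between P3 and P1, and with its relatives Rprl1, Rprl2 and Rprl3 the median was -0.57 with 0 of 4 past 2-fold. Scarna13, a Cajal body RNA, differed by -0.53, and Terc, the telomerase RNA, was above background in P1 alone, at -3.94, with a bound of -1.34 for P3. Of the 7 members in this list 5 were at least 2-fold lower in P3 than in P1, beside 9.78% of all probes. In P4 minus P1, 2 were that much lower, beside 2.58%. The 28S ribosomal RNA gene Rn28s1 gave 7.33, 7.10, 5.78 and 7.35, 2.93-fold lower in P3 than in P1, and its spot lay in a locally bright area of the P3 and P4 arrays. Rn4.5s gave 8.64, 8.63, 7.97 and 8.54.

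**Figure D3:**
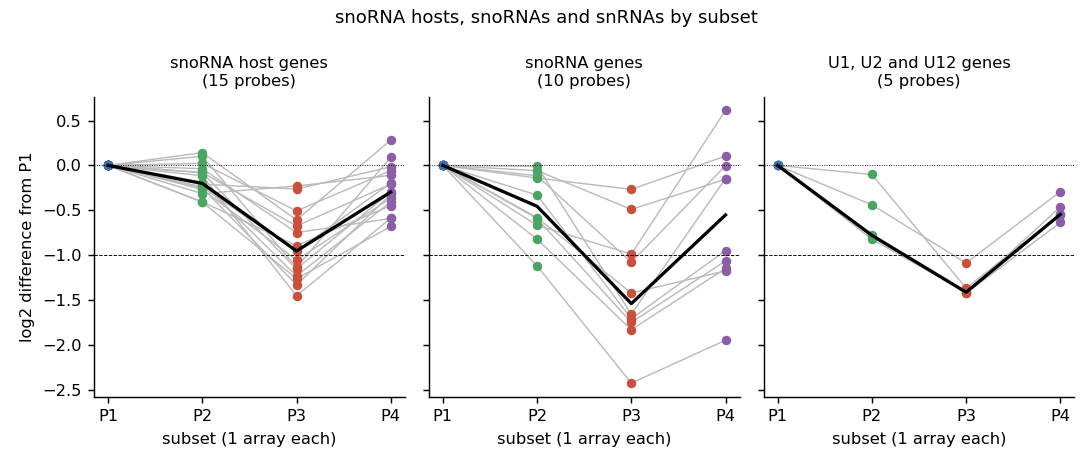
Log2 difference from P1 in each subset for 15 probes of snoRNA host genes, 10 snoRNA genes and 5 U1, U2 and U12 genes; each grey line is 1 probe, points are coloured by subset, the black line is the median and the dashed line marks 2-fold lower, with 1 array per subset. The median in P3 was -0.95, -1.54 and -1.41.

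Host genes of snoRNAs were lower in P3 as well. The list of 22 host genes had 15 on the array and 14 among the members, read by 15 probes. All 15 probes lay below P1 in P3, with a median of -0.95, and 7 were at least 2-fold lower, beside a median of -0.23 and a share of 9.78% over all probes; all 15 lay above P3 in P4, with a median of 0.69, beside 0.13 over all probes. Snhg1, a host of 8 snoRNA genes in the RefSeq table, gave 2.43, 2.32, 0.98 and 1.84 in P1 to P4, 2.74-fold lower in P3 than in P1. Snhg12, with 4 hosted genes, gave 4.14, 3.89, 2.81 and 3.82, and Snhg16, with 3, gave 3.94, 3.74, 2.71 and 3.54. In these 3 genes P3 was the lowest subset, and P4 lay between P3 and P1, by -0.59 from P1 in Snhg1, -0.32 in Snhg12 and -0.41 in Snhg16. Epb41l4aos gave 4.16, 3.75, 2.90 and 3.48, and Snhg8 gave 6.40, 6.14, 5.35 and 6.04. Both probes of Snhg15 were lower in P3 than in P1, by 1.15 and 1.14, and the spot of 1 of them lay in a bright area on P1. Snhg6 gave 4.09, 3.68, 3.2 and 3.64, Snhg7 gave 4.12, 4.08, 3.37 and 3.53, and Snhg9 gave 3.6, 3.52, 2.92 and 3.39. Snhg5 gave 4.09, 3.85, 3.14 and 3.9, its spot lying in a bright area on P4. Snhg3 gave 2.96, 2.99, 2.46 and 2.91, and Snhg4 gave -2.4, -2.25, -3.0 and -2.11. Snhg10 and Snhg20 differed least in P3 minus P1, by -0.23 and -0.26.

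The P3 minus P1 median of the host list stayed below 0 under each of the 7 other settings tried, between -0.74 with the authors' value table and -0.95. In P4 minus P1 the list median was -0.30 with 0 probes past 2-fold, and in P2 minus P1 it was -0.20. Genes of proteins that assemble on snoRNAs, 15 in all, had a P3 minus P1 median of -0.53 with 0 past 2-fold. Among them Fbl, the methyltransferase fibrillarin, differed by -0.96, and Gar1, of the pseudouridylation complex, by -0.89, while Ruvbl2 differed by -0.04. In P4 minus P1 the 15 had a median of 0.07.

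The RefSeq table also places snoRNA or Cajal body RNA genes inside members that are not on the host list. The members hold 53 such genes in 30 genes, of which 17 genes are outside the list. Of these 17 probes, 16 were measured in P3 or P1, 15 lay below 0 and 4 were at least 2-fold lower, beside 9.78% of all probes. Their median was -0.57, beside -0.23 over all probes. AA465934, which holds Snord7, gave -0.65, -1.12, -1.74 and -0.87, and 5730408K05Rik, which holds Snora57, gave 1.49, 1.40, 0.42 and 1.41. Taf1d, whose noncoding variant holds 6 snoRNA genes, gave 1.31, 1.18, 0.43 and 1.13. The exception was 4833422C13Rik, at 0.19 above P1. The table gives no strand for these genes, so that some hosted RNAs may lie on the other strand. These members were looked up after the pattern of the host list had been seen.

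**Figure D4:**
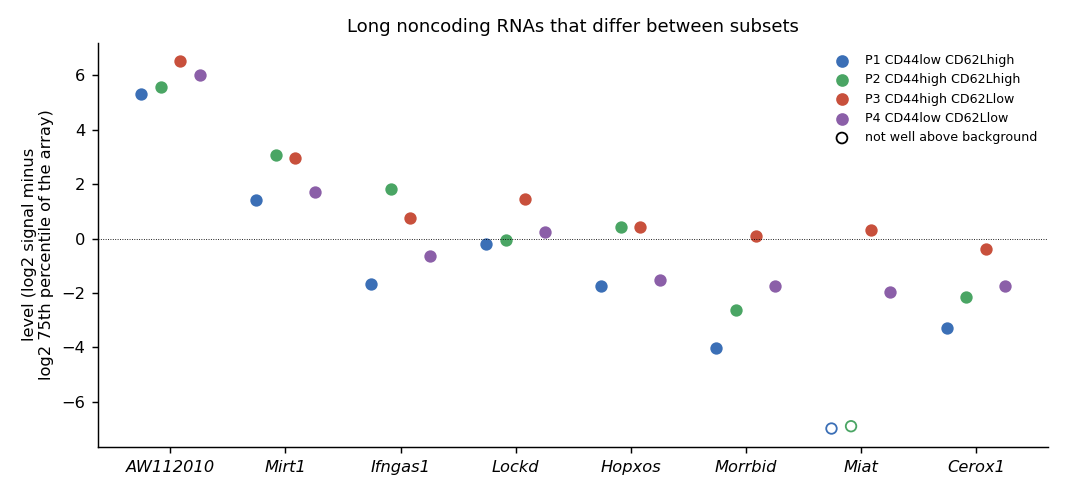
Level (log2 signal minus log2 75th percentile of the array) of 8 lncRNA members in P1 (blue), P2 (green), P3 (red) and P4 (purple), 1 array each; open circles are not well above background. Ifngas1, Mirt1 and Hopxos were higher in P2 and P3 than in P1 and P4, and Morrbid, Miat and Cerox1 were highest in P3.

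Several lncRNAs known from lymphocytes differed more than 2-fold between subsets. Of 32 genes on a list of lymphocyte transcripts, 19 were on the array and 13 were members, read by 15 probes. Not all are lncRNAs. Pisd-ps1, Pisd-ps2 and Pisd-ps3 are transcribed pseudogenes, and Rmrp is also counted among the small RNA genes above. In P3 minus P1, 7 of the 15 were at least 2-fold higher and 1 lower, with a median of 1.05, beside 9.42% and 9.78% of all probes. The 7 include both probes of Morrbid, 1 of them above background in P3 alone. In P4 minus P1, 2 of 14 were higher and 1 lower, with a median of 0.26, beside 4.11% and 2.58% of all probes. The lower one was Rmrp in both pairs.

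Ifngas1, also called NeST or Tmevpg1 and known to enhance interferon-gamma production, gave levels of -1.66, 1.83, 0.76 and -0.65 in P1 to P4. It was 11.2-fold higher in P2 than in P1, and P4 lay nearer to P1, 5.60-fold below P2. Its neighbour Ifng, encoding interferon-gamma, gave 0.69, 4.67, 6.43 and 5.12. The coding gene was therefore highest in P3, and in P4 it was 0.44 above P2, while the antisense member was 2.49 below P2.

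Mirt1 and Hopxos had a pattern like that of Ifngas1. Mirt1 gave 1.40, 3.08, 2.96 and 1.71, with P2 and P3 together above P1 and P4. Hopxos, antisense to the cofactor gene Hopx, gave -1.74, 0.41, 0.41 and -1.51, and Hopx gave 1.72, 3.72, 3.88 and 2.37. Hopxos was 4.45-fold higher in P2 than in P1 and 3.81-fold lower in P4 than in P2. In 10 of all members P2 and P3 both exceeded P1 and P4 at least 2-fold (0.62%, beside 0.616% of all probes). They include these 3 lncRNAs, Rps4l at -0.80, 1.51, 0.38 and -0.77, Gm4814 and the noncoding variant of Runx2. A further 8 members (0.50%, beside 0.416%) had the reverse pattern, among them Gm32474 at 0.64, -1.49, -1.02 and 0.23 and the noncoding variant of the chemokine gene Ccl25, whose spot lay in a bright area on P1.

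Morrbid, a lncRNA known to lower Bcl2l11 (Bim) and to control the lifespan of short-lived immune cells, gave -4.03, -2.64, 0.11 and -1.74 with its better-measured probe. It was 17.7-fold higher in P3 than in P1 and 4.90-fold higher in P4 than in P1. A second probe was above background in P3 alone, at -2.67, and was at least 4.62-fold higher there than in P1, where its spot lay in a bright area. Miat, a nuclear lncRNA, was not well above background in P1 and P2, and gave 0.31 in P3 and -1.96 in P4. Relative to P1, Miat was at least 36.5-fold higher in P3, and in P4 it was at least 7.57-fold higher. Cerox1 gave -3.29, -2.13, -0.39 and -1.73. AW112010, an interferon-inducible transcript of lymphocytes, gave 5.30, 5.56, 6.52 and 6.02, 2.33-fold higher in P3 than in P1. A430093F15Rik gave 0.62, 1.45, 2.07 and 1.30. In all of these P3 was highest and P4 lay above P1. P3 also had the raised summed levels of conventional dendritic cell, macrophage, erythroid, plasma cell and neutrophil markers given above. The part of such cells in these values was not tested.

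Lockd, transcribed next to the cell cycle inhibitor gene Cdkn1b, gave -0.22, -0.07, 1.46 and 0.24, 3.21-fold higher in P3 than in P1. Tyms-ps, a transcribed copy of the thymidylate synthase gene, gave -2.20, -1.27, 0.09 and -1.33, also with P3 highest. Its probe may also read the parent gene, so its identity is uncertain. The other listed transcripts differed less. Pisd-ps1 gave 4.43, 4.26, 4.46 and 4.27, its relative Pisd-ps3 differed between P3 and P1 by -0.28 and -0.27 in 2 probes, and Pisd-ps2 was not well above background in P1 and gave -4.17, -5.0 and -4.47. Gm5547 was at -0.34 in P3 minus P1 and -0.47 in P4 minus P1, and A630023P12Rik gave -0.08, -0.23, -0.70 and -0.19.

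Among nuclear lncRNAs, 12 of 16 listed were members, read by 21 probes. Their P3 minus P1 median was -0.20. Of 20 measured probes 2 were at least 2-fold higher and 0 lower, beside 9.42% and 9.78% of all probes. Firre, an X-linked RNA of nuclear organisation, gave -2.96 in P1, was not well above background in P2, and gave -1.15 in P3 and -2.25 in P4. P2 was the low subset, with a bound of at least 13.4-fold below P3. Xist, which silences 1 X chromosome in female cells, gave -3.12, -2.0, -3.41 and -3.37 and was highest in P2. The sources used here do not give the sex of the mice. Neat1, the scaffold of paraspeckles, was 0.56 and 0.65 higher in P3 than in P1 by its 2 probes, and Oip5os1 was 0.80 higher. Norad, which binds Pumilio proteins, was lower in P3 than in P1 by all 4 of its probes, by between 0.40 and 0.81. Pvt1 and Tug1 were within 0.46 of P1 in every subset. Jpx, an activator of Xist, gave -2.28, -2.28, -2.92 and -2.81, its spot lying in a bright area on P1, as that of Tug1 did on P2.

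Imprinted lncRNAs numbered 5 of 12 listed among the members, read by 10 probes. Their P3 minus P1 median was -0.48, and 1 of 9 was at least 2-fold lower, beside 9.78% of all probes. Kcnq1ot1, which silences its imprinted domain, was read by 4 probes above background on all arrays, and all 4 were lower in P3 than in P1, by between 0.48 and 0.72. In P4 minus P1 its probes disagreed, with -0.94 and -0.90 in 2 of them and -0.19 and 0.11 in the others. One more probe was above background in P2 alone, in a bright area. Airn was at -0.05, 0.03, -0.23 and -0.09 by 1 probe, while a dimmer probe gave -3.52, -3.75, -4.53 and -3.49. Peg13 stayed between 2.82 and 2.98 in all subsets. Meg3 was above background in P3 alone, at -4.18, and Nctc1 gave -4.46, -3.87, -4.51 and -4.66.

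MicroRNA precursors were followed through their host transcripts. The array reads the host RNA and not the mature microRNA. By position, 21 members hold 38 miRNA genes of the RefSeq table, and 60 mature sequences of 54 seeds were found for them. Those of Dleu2 and Mir22hg are shown because these hosts were higher in P3; capitals mark the seed, bases 2 to 8, and miR-15a-5p and miR-16-5p share it.
miR-15a-5p: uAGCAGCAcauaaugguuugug
miR-16-5p: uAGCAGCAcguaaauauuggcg
miR-22-3p: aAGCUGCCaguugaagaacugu
miR-27b-3p: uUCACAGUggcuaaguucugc
miR-24-3p: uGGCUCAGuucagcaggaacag
The last pair lies within Aopep, whose noncoding variant was lower in P4 and P3 than in P1. Dleu2 gave -0.28, -0.44, 0.60 and -0.05 and was 1.03 higher in P3 than in P2. Mir22hg gave -1.57, -1.33, -0.11 and -0.95, 2.75-fold higher in P3 than in P1. Dubr, which holds 1 miRNA gene, gave -1.66, -1.58, -0.58 and -1.11. Lncpint, a p53-responsive lncRNA, is on the list of hosts, but the table places no miRNA gene inside it; its 2 probes gave -0.37, -0.12, -1.16 and -0.58, and 2.43, 2.65, 1.37 and 1.99. E130102H24Rik, which holds Mir101a, gave -0.20, -0.83, -1.40 and -0.89. D7Ertd143e, which holds a cluster of miRNA genes known from embryonic stem cells, gave -3.27, -1.35, -3.89 and -3.83, so that P2 alone stood high, 3.78-fold above P1. Aopep gave -2.36, -3.23, -3.72 and -3.73 with its noncoding variant, and its coding probe gave 1.79, 1.23, 2.41 and 2.28. Ftx, near Xist, was not well above background in P1 and gave -3.62, -4.57 and -3.77 in P2 to P4. Mir9-3hg was above background in P1 alone, where its spot lay in a locally bright area. Over the 21 members that hold a miRNA gene, 20 were measured in P3 minus P1, with a median of -0.36, and 3 were at least 2-fold higher and 5 lower, beside 9.42% and 9.78% of all probes. Over the 6 probes of the 5 listed hosts, Lncpint included, the median was -0.31, with 1 higher and 2 lower. Proteins that process microRNAs had a median of -0.10 over 10 genes; Prkra was 1.22 higher in P3 and Ago4, not well above background elsewhere, at least 2.36 higher, while Drosha and Dicer1 differed by -0.21 and -0.13.

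**Figure D5:**
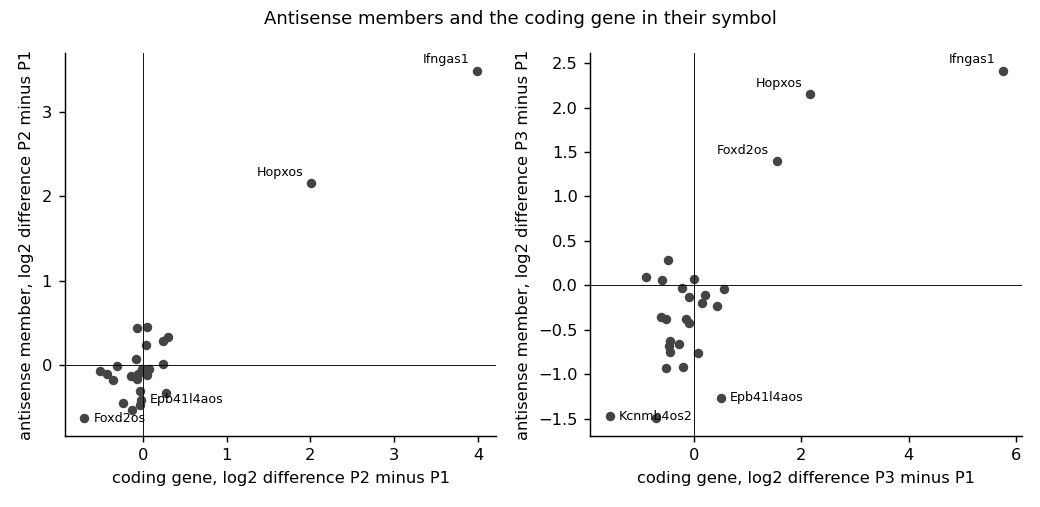
Log2 difference of antisense members (vertical axis) against that of the coding gene in their symbol (horizontal axis) for P2 minus P1 (left) and P3 minus P1 (right), 27 pairs measured on both arrays in each. Ifngas1 and Hopxos lie far to the upper right in both, and in P3 minus P1 Epb41l4aos lies below 0 while its coding gene lies above 0.

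Antisense members could be set beside the coding gene in their symbol in 42 cases, 27 of them measured in P1 and P3 for both genes. Across these 27 genes, which are no independent replicates and share the 2 arrays, the P3 minus P1 differences had a Pearson r of 0.80 and a Spearman rho of 0.39, and the P2 minus P1 differences 0.94 and 0.54. They were 0.67 and 0.62 for P4 minus P1, 0.82 and 0.67 for P4 minus P3 (28 genes), 0.43 and 0.11 for P3 minus P2, and 0.38 and 0.13 for P4 minus P2. The pairs with the largest joint differences were Ifngas1 with Ifng, Hopxos with Hopx and, in P3, Foxd2os with Foxd2. Foxd2os gave -2.45, -3.08, -1.05 and -1.96 and Foxd2 gave -1.47, -2.17, 0.07 and -0.84, in the same order of subsets. Kcnmb4os2 was not well above background in P2 and gave -2.79, -4.26 and -3.64 in P1, P3 and P4, and Kcnmb4, a potassium channel subunit gene, gave 1.06, -1.43, -0.50 and 0.53. Epb41l4aos, 1.26 lower in P3 than in P1, had a partner that was 0.50 higher. Ttc39aos1 was within 0.27 of P1 in every subset, its spot lying in a bright area on P2, and Ttc39a was at -0.18 in P3 and not well above background elsewhere. For lncRNAs beside their nearest coding gene, r ranged over the 6 pairs from 0.17 (P3 minus P2) to 0.41 (P2 minus P1), with 0.26 across 411 genes for P3 minus P1.

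Noncoding variants of coding genes were set beside a coding probe of the same gene. The Runx2 variant was not well above background in P1 and gave -2.15, -1.33 and -3.36 in P2 to P4, and a coding probe gave -2.94 in P2 and -2.65 in P3 and was not above background in P1 and P4. Runx2 is a RUNX factor known from memory CD8 T cells. The variant of Sytl2, a granule-docking gene, was not well above background in P1 and gave -3.23, -2.43 and -3.17, beside coding levels of -1.58, 0.47, 1.67 and 0.80. Gpr137b gave -2.34, -1.25, 0.28 and -1.62 with its variant and -1.5, -0.21, 0.99 and -0.55 with its coding probe. Dzip1 was lower in P3 than in P1 with both, by 1.95 and 1.74, and its variant's spot lay in a bright area on P1. Aopep, above, was lower in P3 than in P1 with its variant and higher with its coding probe. Across 33 to 36 such genes, the differences of variant and coding probe had an r of 0.71 (rho 0.52) for P3 minus P1, 0.66 (0.51) for P4 minus P3, 0.61 (0.45) for P2 minus P1 and 0.61 (0.59) for P3 minus P2. For P4 minus P1 r was 0.28 (0.34), and for P4 minus P2 it was -0.07 (-0.03).

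Members in which P4 and P3 differed together from P1 and P2 are given first, and those that set P4 apart follow. At least 2-fold higher in P3 and in P4 than in P1 and in P2 were 21 members (1.31%, beside 1.66% of all probes), and 6 (0.37%, beside 0.222%) had the reverse pattern. Miat is among the 21. Marcksl1-ps4 gave -1.58, -1.47, 0.61 and -0.15, and Speer5-ps1 was not well above background in P1 and P2 and gave -2.68 and -2.49 in P3 and P4. Both probes of A930001A20Rik were above background in P3 and P4 only, at -2.02 and -3.42, and at -2.37 and -3.47. The largest such difference was in Gm4956, a transcribed pseudogene named here after its values were seen. It gave -2.14, -2.43, 2.84 and 3.28, so that P4 stood 42.8-fold above P1 and 52.1-fold above P2. Among the 6 with the reverse pattern, Serpina3h gave -1.73, -1.43, -3.10 and -3.41.

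P4 exceeded each other subset at least 2-fold in 14 members (0.87%, beside 0.486% of all probes), and 1 member lay as far below all of them (0.06%, beside 0.105%). None of the 14 was above background on another array, and 8 of them lay in a locally bright area of the P4 array. Gm16982 gave -2.78 and Gm33951 gave -3.01 in P4, outside bright areas. NR_033628, Gm10825, AU019990, XR_872394, Gm805, Gm12718, XR_879465 and XR_862292 lay in such an area, with levels from -2.47 to -3.76. The lower one, 9330159M07Rik, gave -2.06, -2.52, -2.71 and -3.74, and it was measured on all 4 arrays. In P3, 73 members (4.55%, beside 5% of all probes) were at least 2-fold higher than in each other subset and 56 (3.49%, beside 2.26%) lower. In P1, 39 members were higher, beside 1.07% of all probes, of which 30 lay in a bright area of that array, and 21 lower, beside 1.31%. In P2, 45 were higher, beside 1.24%, of which 26 lay in such an area, and 6 lower, beside 0.376%.

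Other members named by size included the pseudogene Bambi-ps1, at 2.53, 1.56, -0.87 and 1.63, which was 10.5-fold lower in P3 than in P1. Fam219aos gave -3.47, -3.03, -4.96 and -3.46, and its coding partner Fam219a was 0.70 lower in P3 than in P1. Zfp862-ps, at -2.71, -2.10, -1.07 and -1.68, was 1.03 higher in P4 than in P1, and the gene Iqsec3, whose coding probe was not well above background on any array, gave 0.70, 0.06, -0.53 and -0.82 with its noncoding variant. Snora52 gave -1.54, -2.12, -2.96 and -2.71. Snora34 gave -2.15, -2.74, -3.9 and -3.21, its spot lying in a bright area on P4. Gpr137b-ps gave -1.93, -0.67, 0.22 and -1.12, in the order of Gpr137b. Mira gave -1.2, -2.5, -1.94 and -1.53 and was 2.46-fold lower in P2 than in P1. Noncoding variants of Ager, Aatf and Ppp1r12b had P3 as the lowest subset, with -4.57, -4.93 and -2.4 there and -3.21, -3.48 and -0.71 in P1. Hmga2-ps1 and Klrb1-ps1 were above background in P3 alone, at -3.63 and -3.77. Some large bounds rest on spots in bright areas and were above background on 1 array only, among them Pldi and Mir9-3hg in P1 and Serpina4-ps1 and Acss2os in P2. Mospd4 in P1 and Igf2os in P2 were above background on 1 array only too, outside such areas. An unnamed member, the accession NR_033577, named here after its values were seen, was not well above background in P1 and P4 and gave -3.52 in P2 and 2.77 in P3, 78.2-fold apart.

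Several genes were read by more than 1 member probe. In P3 minus P1, 40 genes had several measured probes, the median range between probes of a gene was 0.26, and of 7 genes with a probe at least 2-fold apart 1 had probes of opposite sign, Gm45351. In P4 minus P1 the counts were 39, 0.17, 1 and 1.

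Among the members with the highest mean signal were Rn4.5s, Gm8580, Gm6548, Gm6607 and H2-K2. H2-K2, a pseudogene of a class I gene, gave 7.47, 7.30, 7.27 and 7.50, and Gm5523 gave 6.90, 7.14, 7.26 and 7.20. In P3 minus P1, the brighter of 2 probes of Gm8580 differed by -0.72, Gm6607 by -1.01 and Gm6548, whose spot lay in a bright area on P3, by -0.68.

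Coding genes with the most similar profile over the 4 arrays were looked up among 2779 candidate probes, and with 4 points high correlations are common. For Ifngas1 these were Tyro3, Dennd4a and Rpgr, each with an r of 0.999. For Mirt1 they were Lmna, Plekhm3 and Pogk, and for Morrbid Tbc1d4, Il15ra and Nsd2. For Lockd they were Enpp2, Spc25 and Csprs, and for Snhg1 Mmp11, Tsacc and Nlk.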

How the data were processed

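Total RNA of 4 sorted CD8 T cell subsets was hybridised to 1-colour Agilent arrays, 1 per subset on 1 slide. The deposited intensity is the processed signal, background-subtracted and spatially detrended within each array by Agilent Feature Extraction 11.0.1.1, per the file headers. The authors also deposited a table of log2 values for 26188 probes, 1085 of them members; its 4 columns hold the same sorted values, the sources used here do not give its normalization method, and it served as an alternative.

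Control spots and outlier spots were left out, spots of a probe were averaged, and levels are log2 of the signal relative to the array's 75th percentile. A probe not well above background entered a difference at its own value or at the array's floor (the lowest signal among probes well above background), whichever was higher, and such a difference is given as "at least"; where the bound had the wrong sign, no size is given. A locally bright area is a cluster of spots raised at least 2-fold on 1 array alone. The fold threshold was 2, and with 1 array per subset no test was run.

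Symbols, hosted small RNA genes and sequences came from RefSeq (GRCm38.p6). Members named are those in the role lists, the largest differences of each pair, those at least 2-fold apart in P4 and those of highest mean signal; model names were passed over in the text where a named member followed, except where said, and 1 member that the rule names is not reported here. Members and lists were chosen with earlier results of these data known. The difference script was tested on simulated data. Python 3.11.15 with numpy 2.4.6 and pandas 2.3.3, and R 4.3.3 with limma 3.58.1 for normexp, were used. Alternatives were quantile normalization, scaling to a common median, normexp with an offset of 50, other filters, outlier spots kept, the authors' table, a 4-fold threshold and the removal of bright areas.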

Additional observations from a re-analysis of the deposited data

How the results depend on the processing

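Nothing here had a replicate, so only the settings below were varied. No paired analysis was possible because each subset has 1 array. Of the counts over members recomputed under each alternative, 75 stayed within 1.5 times the reported count and 105 did not. All 147 differences of named members that were checked kept their sign wherever an alternative gave a value. They were chosen as the largest of each pair or as at least 2-fold, so a change of sign was unlikely from the start. Smaller differences of named members were not in this check. The median P3 minus P1 difference of snoRNA host members ranged from -0.95 to -0.74. The median of the miRNA host members changed sign in the authors' value table, to -0.10 for P4 minus P3 and 0.0541 for P3 minus P2. In the main setting these medians were 0.57 and -0.95 over 5 measured probes, which already went both ways. In P4 minus P3, 3 lay above 0 and 2 below, and in P3 minus P2, 2 above and 3 below. Ftx, 1 of the 5, was above background on 3 arrays only, so the 2 medians may rest on different probes. The change is therefore no reversal of a single host, and its cause was not tested. Dim members, near background, carry the widest spot noise. The counts below are those that moved by more than 1.5 times. For members apart from each other subset no share over all probes is given under these settings, so those counts are not read further.

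With arrays scaled on the median of probes that all arrays measured, the counts of members apart from each other subset became lower 2 (P4). After normexp background correction, the counts became for higher members 21 (P4 minus P1), 20 (P4 minus P2), 60 (P4 minus P3), 34 (P2 minus P1), 59 (P3 minus P1) and 45 (P3 minus P2) and for lower members 16 (P4 minus P1), 25 (P4 minus P2), 33 (P4 minus P3), 21 (P2 minus P1), 135 (P3 minus P1) and 108 (P3 minus P2). Likewise those of members apart from each other subset became higher 11 (P1), 18 (P2), 25 (P3) and 2 (P4) and lower 7 (P1), 1 (P2), 25 (P3) and 0 (P4). Counting only members above background on both arrays compared, the counts became for higher members 25 (P4 minus P1), 26 (P4 minus P2), 79 (P4 minus P3), 37 (P2 minus P1), 64 (P3 minus P1) and 43 (P3 minus P2) and for lower members 28 (P4 minus P1), 34 (P4 minus P2), 41 (P4 minus P3), 25 (P2 minus P1) and 132 (P3 minus P2). Likewise those of members apart from each other subset became higher 4 (P1), 8 (P2), 13 (P3) and 0 (P4) and lower 2 (P2). In the 6 pairs, in the order above, 1146, 1124, 1190, 1115, 1157 and 1142 members were measured. Over all probes 2.29%, 2.43%, 4.44%, 2.46%, 5.55% and 4.94% were then higher. Lower were 0.967%, 2.20%, 4.35%, 1.45%, 8.34% and 6.58% of all probes. With all 5026 noncoding probes in place of the members, and neither filter nor floor, the counts became for higher probes 194 (P4 minus P1), 187 (P4 minus P2), 404 (P4 minus P3), 239 (P2 minus P1), 273 (P3 minus P1) and 243 (P3 minus P2) and for lower probes 279 (P4 minus P1), 271 (P4 minus P2), 223 (P4 minus P3), 243 (P2 minus P1), 632 (P3 minus P1) and 501 (P3 minus P2). Likewise those of noncoding probes apart from each other subset became higher 120 (P1), 116 (P2), 136 (P3) and 59 (P4) and lower 49 (P1), 20 (P2), 112 (P3) and 17 (P4). In the 6 pairs, in the order above, 4.70%, 4.40%, 7.06%, 4.62%, 8.16% and 7.28% of all probes were then higher. Lower were 4.02%, 4.46%, 6.48%, 3.75%, 10.2% and 8.57% of all probes. With outlier spots kept, the counts of members apart from each other subset became higher 26 (P4) and lower 4 (P4). In the authors' value table, the counts became for higher members 25 (P4 minus P1), 24 (P4 minus P2), 42 (P4 minus P3), 39 (P2 minus P1), 66 (P3 minus P1) and 50 (P3 minus P2) and for lower members 26 (P4 minus P1), 35 (P4 minus P2), 35 (P4 minus P3), 27 (P2 minus P1), 105 (P3 minus P1) and 75 (P3 minus P2). Likewise those of members apart from each other subset became higher 4 (P1), 9 (P2), 18 (P3) and 0 (P4) and lower 2 (P2), 26 (P3) and 3 (P4). That table holds 1085 members. In the 6 pairs, in the order above, 2.40%, 2.25%, 2.60%, 2.50%, 6.33% and 4.98% of all its probes were higher. Lower were 0.909%, 2.03%, 3.69%, 1.42%, 4.83% and 3.98%. At a 4-fold threshold, the counts became for higher members 21 (P4 minus P1), 18 (P4 minus P2), 31 (P4 minus P3), 32 (P2 minus P1), 61 (P3 minus P1) and 59 (P3 minus P2) and for lower members 19 (P4 minus P1), 31 (P4 minus P2), 36 (P4 minus P3), 22 (P2 minus P1), 56 (P3 minus P1) and 53 (P3 minus P2). Likewise those of members apart from each other subset became higher 16 (P1), 17 (P2), 22 (P3) and 4 (P4) and lower 5 (P1), 0 (P2), 8 (P3) and 0 (P4). In the 6 pairs, in the order above, 1363, 1351, 1480, 1355, 1508 and 1489 members were measured. Over all probes 1.62%, 1.35%, 0.864%, 1.49%, 4.77% and 4.19% were then higher. Lower were 0.566%, 1.11%, 2.98%, 0.832%, 1.72% and 1.44% of all probes. Without members in locally bright areas, the counts became for higher members 55 (P2 minus P1) and for lower members 38 (P4 minus P1), 53 (P4 minus P2) and 41 (P2 minus P1). Likewise those of members apart from each other subset became higher 9 (P1), 17 (P2) and 5 (P4). The members then measured numbered 1223 (P4 minus P1), 1212 (P4 minus P2) and 1197 (P2 minus P1). Of all probes outside bright areas, 3.37% were higher in P2 minus P1. Lower were 1.70% (P4 minus P1), 3.14% (P4 minus P2) and 2.25% (P2 minus P1).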
